A study of Mus musculus with 2 samples.

Results

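The genes described here are 7 enzymes of cholesterol synthesis, Hmgcs1, Idi1, Fdps, Fdft1, Sqle, Cyp51 and Msmo1, in single cells from the mouse midbrain. They were chosen by name from the 31053 genes listed in the count tables, with earlier results of these data known, and all 7 were found. All are synthesis enzymes, so uptake of cholesterol is represented only by a separate gene list given further on. Each was followed in 882 cells of a control library and 854 cells of a library from mice given maneb and paraquat (MNPQ), after barcodes with fewer than 200 genes or more than 20% mitochondrial counts had been removed.

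The mice were C57BL/6, labelled as 10 weeks old, and the tissue was punched from a 1 mm slice taken to contain the substantia nigra pars compacta. MNPQ mice received 10 mg/kg of paraquat, followed by 30 mg/kg of maneb, by injection into the abdomen on 2 days of each of 3 weeks. The control mice carry the label untreated, whereas the protocol gives them saline, and the sex is labelled as pooled, whereas the protocol takes 3 males for each group. Each group had 1 droplet library and no replicate, which means that differences compare libraries rather than conditions, and none was tested. Cells of the 3 mice of a group went into 1 library. The intervals are exact 95% intervals that cover counting error only, not the variation between mice, dissections or libraries.

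Unique molecular identifiers (UMIs, each standing for 1 captured transcript) numbered 2002640 over the kept control cells and 1958634 over the kept MNPQ cells, with medians of 974 and 945.5 per cell. The libraries shared 2 cell barcodes. Th and Slc6a3, which define dopaminergic neurons, had 1 UMI each in the control and none in the other library, so the defining markers of that region's neurons were nearly absent. Cells were grouped by marker genes, with the sterol genes left out of the grouping. Names with the ending -like rest on those markers, and 1 of the 14 clusters stayed unnamed.

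Cells build cholesterol from acetyl-CoA through the mevalonate pathway, whose first steps make isoprenoid units, whose middle steps join them into squalene, and whose last steps close squalene into a ring and trim it. The genes share control by the transcription factor encoded by Srebf2, which is released when membrane sterol is low and binds the sterol regulatory element (SRE) in their promoters. Plasma lipoproteins hardly cross the blood-brain barrier, so brain cholesterol is made locally, with astrocytes known as a main source in the adult brain and oligodendrocytes using it for myelin.

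Promoters are shown for the members with an SRE-like match, because that element ties the genes together. RefSeq promoters on GRCm38.p6 matched 4 of the 7 genes (Hmgcs1, Idi1, Cyp51 and Msmo1). The 250 bases before each start were searched on both strands. The strict element TCACCCCAC was found in 1 of the 4 promoters and in 0.496% of 32851 mouse promoters. The looser TCACNNCA, which includes every strict match, was found in 3 of the 4 and in 11.4% of all. CCAAT boxes and GC boxes (GGGCGG) were in 4 of 4 each, and in 33.85% and 32.74% of all promoters. The Idi1 window held a CCAAT box and a GC box but neither SRE form. Such a match is a description of letters, not a binding site. Capitals mark the SRE match and the CCAAT (or reversed ATTGG) and GC boxes (or reversed CCGCCC). The windows of Hmgcs1 (chr13:119690101-119690350, plus strand) and Cyp51 (chr5:4104747-4104947, minus strand) end before the first GENCODE exon. The 30 bases of Msmo1 (chr8:64733652-64733681, minus strand) lie before its RefSeq start but within the span of the gene in GENCODE.
Hmgcs1: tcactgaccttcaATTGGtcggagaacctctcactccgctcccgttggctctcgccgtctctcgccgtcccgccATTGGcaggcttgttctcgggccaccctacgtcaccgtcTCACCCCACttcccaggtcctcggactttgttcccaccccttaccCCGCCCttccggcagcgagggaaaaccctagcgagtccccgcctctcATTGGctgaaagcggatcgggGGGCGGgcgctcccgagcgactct
Cyp51: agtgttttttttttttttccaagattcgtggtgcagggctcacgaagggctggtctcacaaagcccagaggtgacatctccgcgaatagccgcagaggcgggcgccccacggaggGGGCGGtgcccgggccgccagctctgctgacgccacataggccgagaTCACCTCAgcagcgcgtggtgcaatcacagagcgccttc
Msmo1: gcacggaCCAATCACTGCAcggcgaaggca
The strict SRE of Hmgcs1 began 137 bases before its RefSeq start, and the looser match of Cyp51 began 88 bases before its own. Msmo1 had 2 looser matches, TCACTCCA at 177 bases before the start, outside the printed bases, and TCACTGCA at 92, which overlapped a CCAAT box by 1 base.

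The sum of the 7 genes was highest in astrocyte-like cells, among the 6 classes with at least 30 cells in each library. Summed over the 7, 324 control astrocyte-like cells had a level of 1637 CPM (UMIs of the genes per 1000000 UMIs of the class, interval 1530 to 1749), and 303 MNPQ cells had 2252 CPM (2124 to 2386). Oligodendrocyte-like cells followed with 757.5 and 813.5 CPM, then neuron-like cells with 694.2 and 754.1. Pericyte-like cells had 471.7 and 362.2 CPM, endothelial-like cells 266.6 and 273.8, and microglia-like cells 107.4 and 147.8. This order was the same in both libraries. The intervals of oligodendrocyte-like and neuron-like cells overlapped in both, as did those of pericyte-like and endothelial-like cells. The astrocyte-like level lay above the next class without overlap in both libraries, 2.16-fold over the oligodendrocyte-like level in the control (1.84 to 2.55) and 2.77-fold in the MNPQ library (2.45 to 3.14). Astrocyte-like cells held 26.5% of all control UMIs but 60.6% of those of the 7 genes, and 26.2% and 62.9% in the MNPQ library. Sterol genes lay lowest in microglia-like cells, with 39 UMIs in each library and a level 15.2-fold under that of astrocyte-like cells in both. Oligodendrocyte precursor-like cells, with 18 and 8 cells too few to rank, had 23 and 4 UMIs. Their control level of 1151 CPM (729.9 to 1728) overlapped that of astrocyte-like cells, but 17 of the 23 UMIs came from 1 cell. Only 5 of the 18 control cells had any, and the interval does not cover such spread between cells. Their MNPQ level was 365.5 CPM (99.6 to 935.8).

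**Figure D1:**
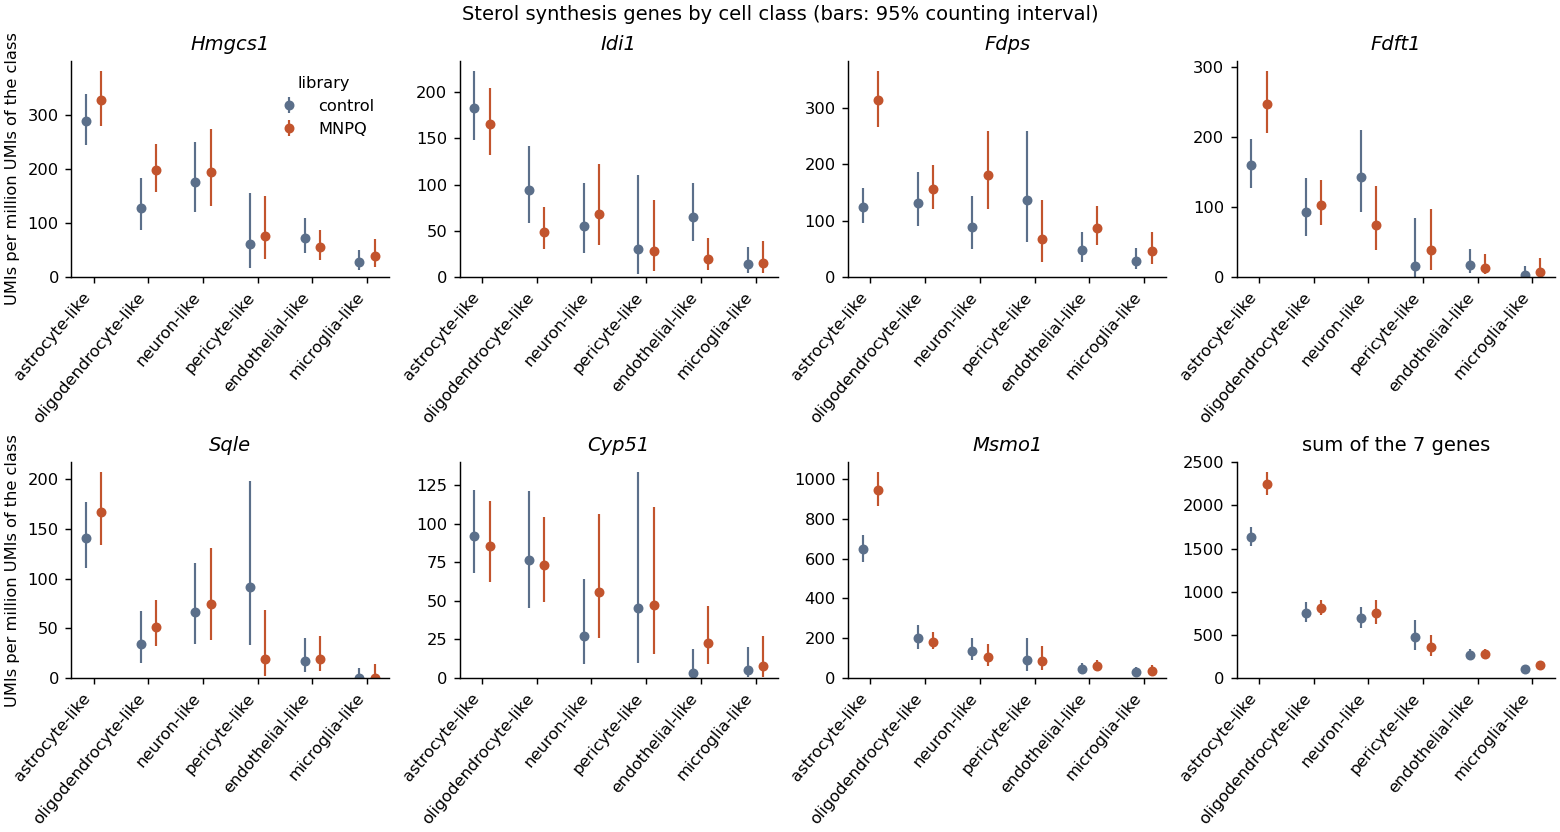
Level of each sterol gene and of their sum in 6 cell classes, in CPM (linear axes that differ between panels). Points are the control (blue) and the MNPQ library (orange) and bars are 95% counting intervals; astrocyte-like cells stand highest for the sum, at 1637 and 2252, and microglia-like cells lowest, at 107.4 and 147.8.

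The first enzyme, Hmgcs1 (ENSMUSG00000093930, chr13:119690379-119708260, plus strand, mm10), condenses acetoacetyl-CoA into HMG-CoA. It had 288.1 CPM in control and 327.3 CPM in MNPQ astrocyte-like cells, against 176.3 and 193.2 in neuron-like and 127.7 and 197.9 in oligodendrocyte-like cells. Its microglia-like level was 27.5 and 37.9 CPM. The next member in the pathway, Idi1 (ENSMUSG00000058258, chr13:8885501-8892451, plus strand), interconverts the isoprenoid units. Idi1 was at 182.7 and 165.6 CPM in astrocyte-like cells, without overlap with the next class in either library, and at 13.8 and 15.2 CPM in microglia-like cells.

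Fdps (ENSMUSG00000059743, chr3:89093588-89101959, minus strand) makes farnesyl diphosphate, the branch point between sterols and protein prenylation. Its order of classes differed between the libraries. In the control, Fdps stood at 136.9 CPM in pericyte-like, 131.9 in oligodendrocyte-like, 124.3 in astrocyte-like and 88.2 in neuron-like cells, all with overlapping intervals. In the MNPQ library it stood at 313.6 CPM in astrocyte-like cells, above 180.7 in neuron-like and 156.4 in oligodendrocyte-like cells without overlap. Microglia-like cells had 27.5 and 45.5 CPM. Fdps shares 1124 exonic bases with Gm43738, a protein-coding gene on the same strand, which had 0 UMIs in both libraries, and how the counting split reads between them is not given in the sources used here.

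Fdft1 (ENSMUSG00000021273, chr14:63145150-63179578, minus strand), the squalene synthase that commits farnesyl diphosphate to sterols, was at 160.1 CPM in control astrocyte-like and 143.3 in control neuron-like cells. The MNPQ values were 247.4 in astrocyte-like and 74.8 in neuron-like cells. In microglia-like cells Fdft1 had 1 and 2 UMIs. Its exons overlap those of Ctsb on the other strand by 774 bases, and Ctsb had 661 and 535 UMIs in those same microglia-like cells. Sqle (ENSMUSG00000022351, chr15:59315077-59331192, plus strand) oxidises squalene, a rate-limiting step. Sqle had 141.2 and 167.5 CPM in astrocyte-like cells and 34 and 51.3 CPM in oligodendrocyte-like cells. No Sqle UMI was seen in 193 control and 139 MNPQ microglia-like cells, which allows up to 8.26 and 11.4 CPM by the one-sided limit of 3 counts per library, and up to 10.15 and 13.98 CPM by the exact interval used for the other levels. In 28 control ependymal-like cells Sqle had 24 UMIs (103.5 CPM, 66.3 to 154), an interval that overlapped that of astrocyte-like cells (111.1 to 177), whereas Msmo1 with 6 UMIs (25.9 CPM, 9.50 to 56.3) lay far under its astrocyte-like level.

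Cyp51 (ENSMUSG00000001467, chr5:4081145-4104746, minus strand) and Msmo1 (ENSMUSG00000031604, chr8:64718139-64733792, minus strand) remove methyl groups from lanosterol and its products. Cyp51 was at 92.3 and 85.7 CPM in astrocyte-like and at 76.6 and 73.3 CPM in oligodendrocyte-like cells, with overlapping intervals in each library. Cyp51 shares 166 exonic bases with Akap9 on the other strand, and the sources used here do not state whether counting used the strand. Msmo1 lay higher in astrocyte-like cells than in the other 5 ranked classes in both libraries. It had 647.8 and 944.8 CPM there, 200 and 183.2 in oligodendrocyte-like, 137.7 and 106.0 in neuron-like and 30.3 and 34.1 in microglia-like cells. The astrocyte-like level of Msmo1 was 3.24-fold the oligodendrocyte-like level in the control (2.38 to 4.49) and 5.16-fold in the MNPQ library (4.04 to 6.67). Of the 869 and 1156 sterol gene UMIs in astrocyte-like cells, 344 and 485 came from Msmo1.

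The class profiles of the members resembled each other. Over 12 points (6 classes in 2 libraries, which share library and depth), the correlation of each member with the sum of the other 6 ran from 0.857 for Cyp51 to 0.947 for Hmgcs1, on log2(CPM + 10). Among 3383 genes with at least 200 UMIs, 4 of the 6 members in that ranking were within the first 6 places by likeness to the sum of all 7, to which they themselves contribute. The 5 genes outside all lists with the most similar profile were Pmm1 (r = 0.96, rank 2), Cox7c (0.96), Mrpl28 (0.94), Cisd1 (0.93) and Prnp (0.93). Of the other lipid genes, Insig1, which holds the Srebf2 product in the endoplasmic reticulum when sterol is plentiful, ranked 12 (r = 0.92).

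Across all kept cells, 6 of the 7 genes had a higher level in the MNPQ than in the control library, as did 47.43% of all genes, and Fdps differed most. Fdps had 166 control and 313 MNPQ UMIs (82.9 and 159.8 CPM), a log2 ratio of 0.95 (0.67 to 1.23), which was 0.34 in cells with fewer than 1000 UMIs. Msmo1 had 459 and 627 UMIs (229.2 and 320.1 CPM), a log2 ratio of 0.48 (0.31 to 0.66), which was 0.13 with the cells thinned by random draw to 1000 UMIs each, shallower cells left out. Fdft1 had 152 and 199 UMIs, a log2 ratio of 0.42 (0.11 to 0.735). The other members lay nearer 0. Hmgcs1 had 277 and 328 UMIs, a log2 ratio of 0.28 (0.04 to 0.51), which turned to -0.11 with clusters weighted equally. In the thinned cells, by a single random draw per cell, it turned to -0.28 on 72 and 55 UMIs (-0.82 to 0.24). The same cells before thinning gave 0.30 (0.03 to 0.57). Cyp51 had 85 and 104 UMIs (0.32, interval -0.10 to 0.75) and Sqle 133 in each library (0.03, interval -0.33 to 0.39), and both intervals included 0. Each had the other sign in 3 of 15 alternatives, Cyp51 down to -0.38 in cells with fewer than 1000 UMIs and Sqle down to -0.23 with clusters weighted equally. Idi1 was the 1 member with a lower level, 163 and 135 UMIs (-0.24, interval -0.58 to 0.10). The sum of the 7 was 716.6 and 938.9 CPM, a log2 ratio of 0.39 (0.29 to 0.49), and 0.12 with clusters weighted equally. By a rule of size, 1 of 7 members was at least 1.5-fold higher and 0 lower. Of all 12067 genes with at least 20 UMIs, 9.22% were at least 1.5-fold higher and 16.7% lower, so for 7 genes the background amounts to less than 1 higher and about 1 lower gene. The members' median log2 ratio was 0.32, against -0.03 over all genes. Because the members were chosen with earlier results of these data known, this is not an independent comparison. Values over all kept cells also carry the mix of classes, which differed between the libraries, with 193 and 139 microglia-like and 54 and 81 oligodendrocyte-like cells.

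In astrocyte-like cells, Fdps was 2.52-fold higher in the MNPQ library. The UMIs numbered 66 in 324 control cells and 161 in 303 MNPQ cells, 124.3 CPM (96.1 to 158.1) and 313.6 CPM (267.1 to 366.0), and the log2 ratio was 1.33 (0.91 to 1.77). Fdft1, the next enzyme after it, went from 85 to 127 UMIs (160.1 and 247.4 CPM, log2 ratio 0.63, interval 0.22 to 1.04). Msmo1 had 344 and 485 UMIs, a log2 ratio of 0.54 (0.34 to 0.75). For these 3 genes the intervals of the ratio lay above 0. For the other 4 genes the interval of the ratio included 0. Hmgcs1 had 153 and 168 UMIs (0.18, interval -0.14 to 0.51) and Sqle 75 and 86 (0.25, interval -0.22 to 0.71). Idi1 had 97 and 85 (-0.14, interval -0.58 to 0.29) and Cyp51 49 and 44 (-0.11, interval -0.73 to 0.51). The intervals of these 4 all ended below the lower bound of Fdps, though the differences between genes were not tested. They do not show that the 4 were equal in the libraries. The count past 1.5-fold was 2 of 7 higher and 0 of 7 lower, and 17.0% of 5843 background genes were higher and 16.5% lower in this class, which for 7 genes is about 1 in each direction. The members' median was 0.25, against 0.05 over all genes.

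**Figure D2:**
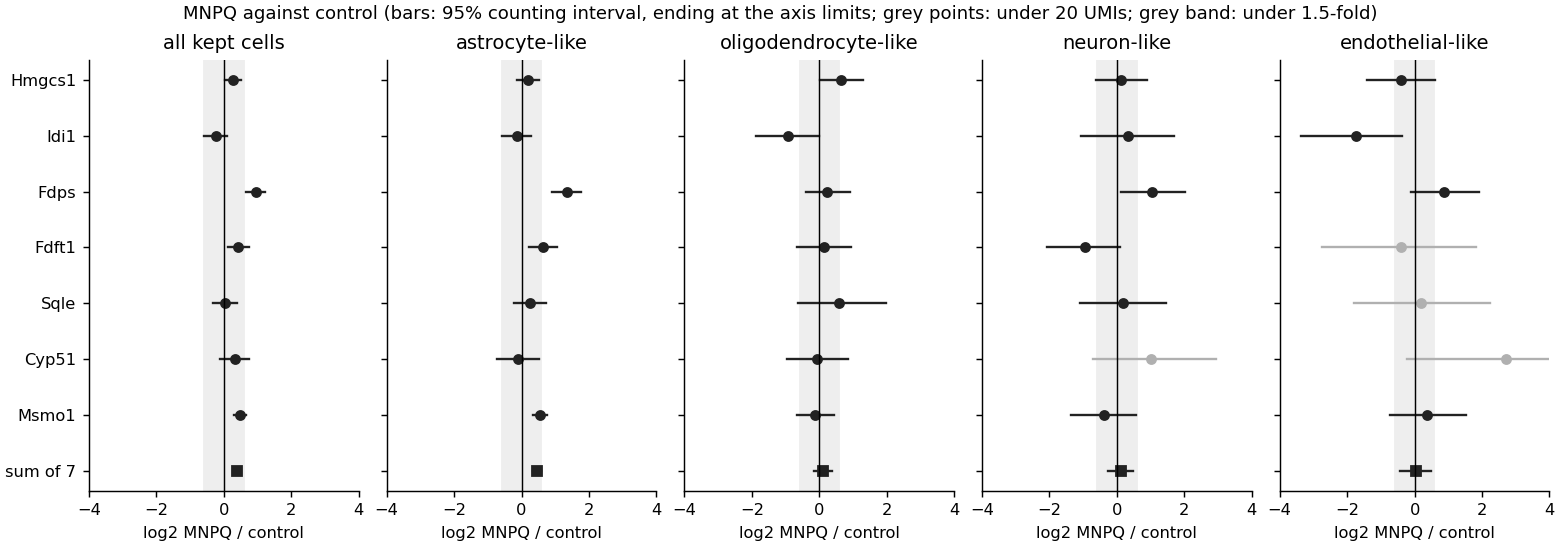
The log2 ratio of MNPQ over control for each sterol gene and their sum, in all kept cells and in 4 cell classes. Points are ratios and bars 95% counting intervals, in grey for genes under 20 UMIs; Fdps lies right of 0 in every panel, at 0.95 in all kept cells and 1.33 in astrocyte-like cells, while Idi1 lies left of 0 except in neuron-like cells.

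The Fdps ratio was higher in the deeply counted astrocyte-like cells. In cells with at least 1000 UMIs, 134 control and 105 MNPQ cells, Fdps had 44 and 133 UMIs (108.7 and 349.6 CPM), a log2 ratio of 1.69 (1.18 to 2.21). In the 190 and 198 shallower cells it had 22 and 28 UMIs (174.4 and 210.7 CPM), a log2 ratio of 0.27 (-0.59 to 1.15). These intervals do not overlap, though the difference between them was not tested. The deep control cells thus had the lowest Fdps level of the 4 groups and the deep MNPQ cells the highest. These deep cells had a median depth of 2111 UMIs (control) and 3370 UMIs (MNPQ). With every deep cell thinned to 1000 UMIs, the share of astrocyte-like cells with a Fdps UMI was 11.9% for control and 33.3% for MNPQ cells (22.4% and 60% before thinning). In microglia-like cells thinned alike a Fdps UMI was found in 0 of 85 cells, which allows up to 4.25% (Clopper-Pearson), and in 4 of 65 cells. Weighting each cell equally gave a log2 ratio of 0.80 for Fdps in the class, and weighting its clusters equally gave 0.61.

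Msmo1 and Fdft1 had point ratios above 0 at both depths. Msmo1 had 293 and 397 UMIs in the deep cells, a log2 ratio of 0.53 (0.31 to 0.75), and 51 and 88 in the shallow cells, a log2 ratio of 0.71 (0.20 to 1.24). Fdft1 had 69 and 99 UMIs in the deep cells, a log2 ratio of 0.61 (0.15 to 1.08), and 16 and 28 in the shallow cells, 0.73 with an interval that included 0 (-0.20 to 1.72). Idi1 had 61 and 67 UMIs in deep cells (0.23, interval -0.30 to 0.75) but 36 and 18 in shallow cells (-1.07, interval -1.98 to -0.22). The ratio of Idi1 thus lay on either side of 0 by depth.

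Astrocyte-like cells formed 3 clusters, which the libraries filled unequally. A shallow cluster led by Aldoc and Tspan7 held 148 control and 224 MNPQ cells, a deep one led by F3 and Gm3764 held 112 and 67, and the last, led by Itih3 and Agt, held 64 and 12. Median UMIs per cell were 679 (control) and 668 (MNPQ) in the shallow cluster, but 2603 and 4610 in the deep one. The last cluster was as shallow as the first, at 662.5 and 680.5. In the deep cluster Fdps had 32 and 113 UMIs (87.7 and 343.9 CPM), a log2 ratio of 1.97 (1.39 to 2.59), against 26 and 47 UMIs in the shallow one (220.4 and 267.4 CPM, 0.28, interval -0.44 to 1.03). Msmo1 had 381.5 and 773.7 CPM in the shallow cluster, a log2 ratio of 1.02 (0.52 to 1.54), and 748.1 and 1047 CPM in the deep one (0.48, interval 0.25 to 0.72). The sum of the 7 had a log2 ratio of 0.26 (0.01 to 0.52) in the shallow and 0.55 (0.40 to 0.71) in the deep cluster. The last cluster had 73 and 10 sterol gene UMIs (1517 and 1113 CPM), a log2 ratio of -0.45 (-1.57 to 0.51), in the other direction. Beside these ratios, the mitochondrial share of astrocyte-like UMIs was 7.97% and 7.12% and the ribosomal protein share 3.70% and 4.64%. The 10 astrocyte markers, none at 0, summed to 21423 and 18945 CPM, and the 10 mature oligodendrocyte markers, none at 0, summed to 2571 and 3004 CPM. The 5 erythroid markers summed to 367.2 CPM in the control, with 1 at 0, and to 83.8 CPM in the MNPQ library, with none at 0. The part of these in the sterol gene ratios was not tested.

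**Figure D3:**
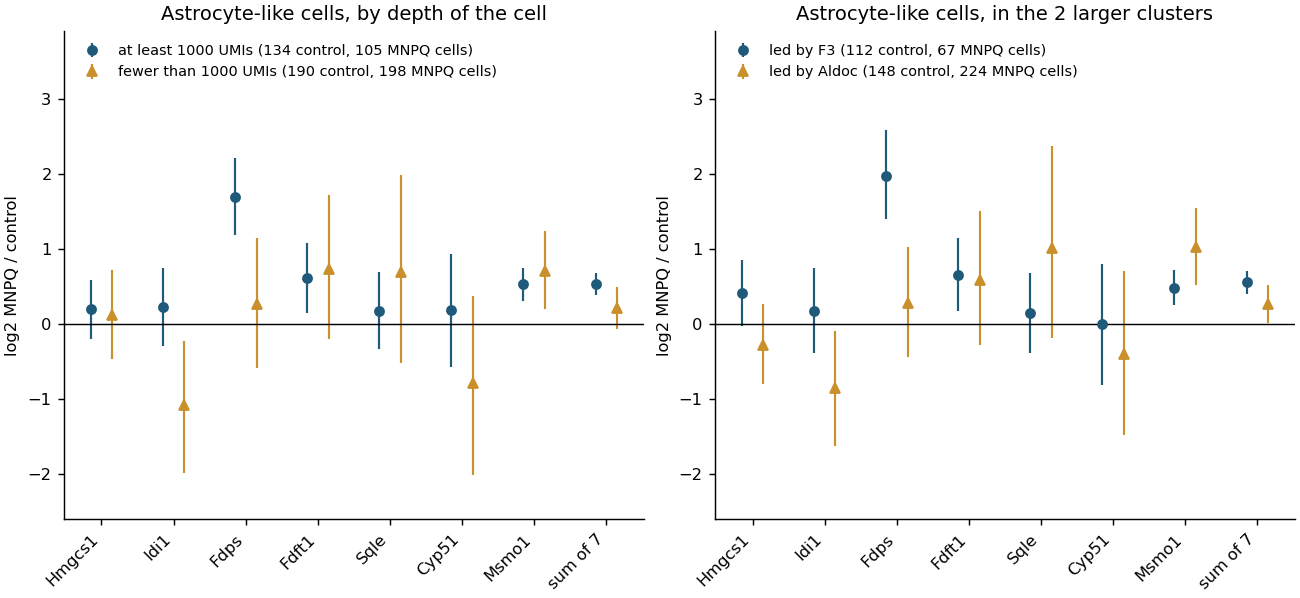
The log2 ratio of MNPQ over control in astrocyte-like cells, by depth of the cell (left) and in the 2 larger clusters (right), for each sterol gene and their sum. Points are ratios and bars 95% counting intervals; Fdps stands at 1.69 in deep and 0.27 in shallow cells, and Idi1 at 0.23 and -1.07.

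Oligodendrocyte-like cells, 54 control and 81 MNPQ cells with medians of 4648 and 4951 UMIs, had a ratio of the sum whose interval included 0. The sum was 178 and 333 UMIs (757.5 and 813.5 CPM), a log2 ratio of 0.10 (-0.16 to 0.37). Hmgcs1 had 30 and 81 UMIs (127.7 and 197.9 CPM), a log2 ratio of 0.63 (0.01 to 1.29). Idi1 had 22 and 20 UMIs (93.6 and 48.9 CPM), a log2 ratio of -0.94 (-1.89 to 0.00). Fdps, with 31 and 64 UMIs, had a log2 ratio of 0.25 (-0.40 to 0.91), and Msmo1, with 47 and 75, one of -0.13 (-0.67 to 0.43). By size, 2 of 7 were at least 1.5-fold higher (Hmgcs1 and Sqle, the latter on 8 and 21 UMIs) and 1 lower (Idi1). The background was 12.7% higher and 11.8% lower, about 1 gene of 7 each way. In this class the 10 endothelial markers summed to 417 CPM in the control, with 5 of them at 0, and to 1300 CPM with none at 0 in the MNPQ library, and their part was not tested.

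Neuron-like cells, 120 and 143 cells, had sums of 126 and 121 UMIs (694.2 and 754.1 CPM), a log2 ratio of 0.12 (-0.25 to 0.49). In a single random draw from the 39 and 50 cells deep enough to thin, it turned to -0.86 (-1.60 to -0.14), on 41 and 29 UMIs. The same cells before thinning had 86 and 75 UMIs and gave 0.20 (-0.27 to 0.66). The sign was kept in 10 of 14 alternatives. Fdps had 16 and 29 UMIs (88.2 and 180.7 CPM), a log2 ratio of 1.04 (0.11 to 2.02). Fdft1 had 26 and 12 UMIs (143.3 and 74.8 CPM), a log2 ratio of -0.94 (-2.06 to 0.10). The remaining members had 5 to 32 UMIs in a library, and their intervals included 0. Of the 6 members with at least 20 UMIs, 1 was past 1.5-fold higher and 1 lower, against 16.4% and 17.8% of background genes. The 12 neuron markers summed to 9058 and 10963 CPM in these cells. Mature oligodendrocyte markers summed to 1835 and 3216 CPM, with none of the 10 at 0 in either library. The 10 astrocyte markers summed to 1366 and 1583 CPM, and the 4 markers of proliferating cells to 352.6 and 261.8 CPM. None of these was at 0 in either library. The part of these other markers in the sterol gene levels and ratios of the class was not tested.

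In endothelial-like cells, 73 and 68 cells, the sums were 78 and 85 UMIs (0.04, interval -0.42 to 0.50). Idi1 had 19 and 6 UMIs there (64.9 and 19.3 CPM), a log2 ratio of -1.75 (-3.36 to -0.37), and Fdps had 14 and 27 (0.86, interval -0.12 to 1.91). These were the 2 of 4 members past 1.5-fold, 1 in each direction, with a background of 9.65% higher and 15.3% lower. The 5 erythroid markers summed to 10833 and 28214 CPM in this class, none at 0, and their part was not tested. Microglia-like cells held 39 sterol gene UMIs in each library (0.46, interval -0.22 to 1.14). There, Fdps with 10 and 12 UMIs (0.72, interval -0.61 to 2.09) was the 1 of 3 members with at least 20 UMIs past 1.5-fold, none was lower, and the background was 9.12% higher and 16.2% lower. Pericyte-like cells had 31 and 38 UMIs, with no member at 20. Across the 5 classes with at least 20 UMIs of Fdps, its ratio was above 0 in each, while the 9 and 7 UMIs of pericyte-like cells gave -1.04 (-2.70 to 0.56). Of all genes, 43.62% to 54.72% were above 0 in each of these 5 classes, and the share above 0 in all of them was not computed. In microglia-like cells 11 of 13 alternatives kept the sign of Fdps, with a lowest value of -0.47. In classes too small to rank, Fdps had 7 and 0 UMIs (oligodendrocyte precursor-like, 6 of the 7 in 1 cell), 10 and 2 (ependymal-like) and 1 and 9 (smooth muscle-like). Idi1 lay between -1.75 in endothelial-like and 0.32 in neuron-like cells (interval -1.06 to 1.71).

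The other enzymes of sterol synthesis were read from a list of 14 genes, all with at least 20 UMIs over the kept cells. Of these, 4 were at least 1.5-fold higher in the MNPQ library and none lower, with a median log2 ratio of 0.33 (8 genes above 0 and 6 below). The background over all kept cells was 9.22% higher and 16.7% lower, about 1 and 2 genes of 14. The list was chosen with earlier results of these data known, and the 4 were named after their values were seen. Mvd, the mevalonate diphosphate decarboxylase, had 55 and 96 UMIs (0.84, interval 0.34 to 1.34). Mvk, the mevalonate kinase, had 41 and 71 (0.82, interval 0.25 to 1.42), and turned to -0.38 in thinned cells. Pmvk, the phosphomevalonate kinase, had 123 and 191 (0.67, interval 0.33 to 1.01), and 0.18 with clusters weighted equally. Tm7sf2, a sterol reductase, had 26 and 40 (0.65, interval -0.09 to 1.42). Mvk, Pmvk and Mvd, in that order, act between Hmgcs1 and Idi1. The lowest was Lss, which closes the sterol ring, with 26 and 18 UMIs (-0.50, interval -1.45 to 0.42). In astrocyte-like cells 11 of the 14 had 20 UMIs, of which 3 were past 1.5-fold higher and 1 lower, with a median of 0.25. That is near the background of 17.0% higher and 16.5% lower, about 2 genes of 11 each way. Mvd had 35 and 67 UMIs there (0.99, interval 0.38 to 1.62), Nsdhl, which works with Msmo1 in demethylation, 28 and 52 (0.94, interval 0.25 to 1.66), and Pmvk 54 and 96 (0.88, interval 0.38 to 1.39, and 0.17 with clusters weighted equally). The lower one was Ebp, a sterol isomerase, with 22 and 14 (-0.60, interval -1.68 to 0.43), which turned to 0.38 with clusters weighted equally.

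The regulators and the uptake and efflux genes are read against the same background, 9.22% of all genes past 1.5-fold higher and 16.7% lower over all kept cells, and 17.0% and 16.5% in astrocyte-like cells. Of 10 genes in a list named SREBP regulation, 1 was past 1.5-fold over all kept cells, Nr1h3 with 21 and 31 UMIs (0.59, interval -0.25 to 1.47), and the median was 0.02. Insig1, the most counted of them, had 179 and 232 UMIs (0.41, interval 0.12 to 0.70), but -0.06 with clusters weighted equally. Mylip was lowest, with 84 and 59 UMIs (-0.48, interval -0.98 to 0.02). The name of the list is a label, and whether Nr1h3, Nr1h2 or Mylip act on the sterol enzymes was not tested. In astrocyte-like cells 0 of 6 were past 1.5-fold, and Srebf1, the regulator best known for fatty acid genes, was lowest, with 118 and 85 UMIs (-0.42, interval -0.84 to -0.01), and Insig1 was most counted, with 100 and 107 UMIs (0.15, interval -0.26 to 0.55), and -0.17 in thinned cells. The highest was Nr1h2, with 29 and 37 UMIs (0.40, interval -0.34 to 1.15), and -0.40 in cells with fewer than 1000 UMIs. Of 11 genes of cholesterol uptake and intracellular transport, 0 were past 1.5-fold in either direction over all kept cells, with a median of 0.12. Npc2, a lysosomal cholesterol carrier, had 804 and 869 UMIs (0.14, interval 0.00 to 0.28), and -0.24 in cells with fewer than 1000 UMIs. Osbp, an oxysterol-binding protein, was highest, with 19 and 27 UMIs (0.54, interval -0.36 to 1.47). Soat1, which esterifies cholesterol, was lowest, with 90 and 60 UMIs (-0.55, interval -1.05 to -0.07), and stood at 0.71 in cells with fewer than 1000 UMIs. In astrocyte-like cells 0 of the 5 uptake and transport genes with 20 UMIs were past 1.5-fold, and their median was -0.38. The lowest there was Lrp1, a lipoprotein receptor, with 96 and 65 UMIs (-0.51, interval -0.99 to -0.04), which turned to 0.15 in cells with 500 genes or more and no more than 10% mitochondrial UMIs, and the highest was Npc1, a lysosomal cholesterol transporter, with 24 and 31 (0.42, interval -0.40 to 1.25). Of 5 genes of efflux and turnover, 3 had 20 UMIs and 0 were past 1.5-fold, with a median of 0.18. Cyp46a1, which turns cholesterol into a form that leaves the brain, had 39 and 55 UMIs (0.53, interval -0.09 to 1.16), and Abca1, an efflux transporter, 94 and 65 (-0.50, interval -0.98 to -0.03), which turned to 0.11 in thinned cells.

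**Figure D4:**
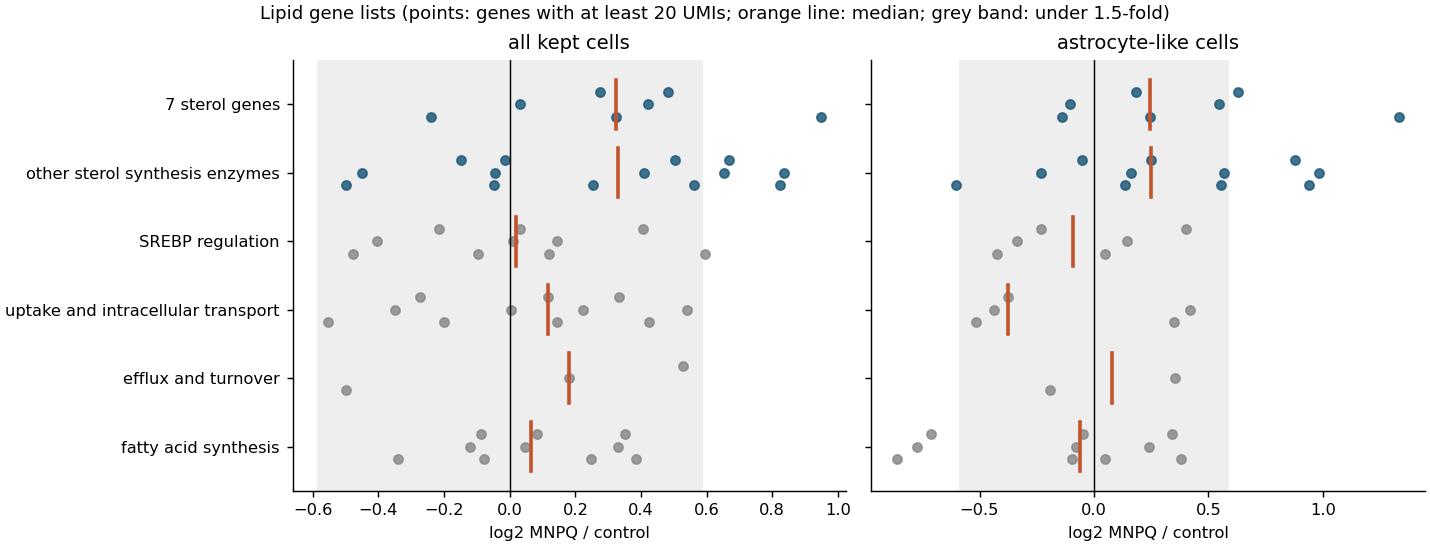
The log2 ratio of MNPQ over control for the sterol genes and 5 further lipid gene lists, in all kept cells (left) and in astrocyte-like cells (right). Each point is a gene with at least 20 UMIs, the orange line is the list's median and the grey band is under 1.5-fold; the medians of the 7 genes are 0.32 and 0.25, and those of the other sterol enzymes 0.33 and 0.25.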

How the data were processed

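Single-cell RNA was measured in 1 control and 1 MNPQ library. The deposited matrices hold counts, whole UMIs per gene and barcode, made by the authors with Cell Ranger 3.0.2 per the file headers, on mm10 per the labels. Strand use in counting is not given in the sources used here. The filter left 882 of 1105 control and 854 of 965 MNPQ barcodes.

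Cells of both libraries were clustered together with scanpy 1.11.5 and leidenalg 0.10.2 (2000 variable genes without the 7 sterol genes and the pathway lists, 30 components, 15 neighbours, resolution 1.0) and named from 18 marker lists. Doublets, 9 and 6 cells by Scrublet, were kept. A level is the UMI sum of a class in a library divided by all UMIs of that class (CPM). Intervals are exact, Poisson for a level, conditional binomial for a ratio and Clopper-Pearson for a share, checked on simulated data. The background is every gene with at least 20 UMIs in the class, past the same 1.5-fold. Comparisons in the report cover classes of 30 or more cells in each library, and smaller ones are given as values.

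The rule for named genes took all 7 members, the highest, lowest and most counted gene of a list over all kept or astrocyte-like cells, and the 5 genes most like the summed profile. The members and lists were chosen with earlier results of these data known. Alternatives changed the cell filter, clustering, doublets, scaling, weighting and depth of the cells. Thinning took a single random draw per cell, and no interval covers the error of that draw. Positions are from GENCODE M21 and promoters from RefSeq. Promoters of Sqle, Fdft1 and Fdps are not shown.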

Additional observations from a re-analysis of the deposited data

How the results depend on the processing

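Over all kept cells the summed sterol genes kept a ratio above 0 in all 15 alternatives (log2 0.12 to 0.52), and in astrocyte-like cells in all 14 (0.19 to 0.54). Alternatives that changed only the clustering or the class names leave the pool of all kept cells as it is. There they repeat the reported value and could not change its sign. Leaving out doublets likewise gave the same list medians in astrocyte-like cells. Microglia-like, endothelial-like and oligodendrocyte-like cells had the same cell numbers and UMI totals at clustering resolutions 0.5, 1.0 and 2.0. Those settings could thus hardly move their ratios. Weighting clusters equally changes nothing in a class of 1 cluster, which holds for neuron-like, endothelial-like, oligodendrocyte-like and pericyte-like cells. These repeats are counted in every number of alternatives given here and above, and in the 583 single-gene ratios below. Over all kept cells the log2 ratio of the sum moved from 0.39 to 0.52 with the stricter cell filter (500 genes or more, no more than 10% mitochondrial UMIs), 0.19 with each cell weighted equally, 0.21 in thinned cells, 0.19 in cells with fewer than 1000 UMIs, 0.12 with clusters weighted equally and 0.23 with classes weighted equally. In astrocyte-like cells it moved from 0.46 to 0.28 with each cell weighted equally, 0.21 in cells with fewer than 1000 UMIs and 0.19 with clusters weighted equally. In thinned cells the sum had a log2 ratio of -0.53 in endothelial-like, 1.97 in microglia-like, -0.86 in neuron-like and 0.41 in oligodendrocyte-like cells. The same cells before thinning gave 0.002, 0.69, 0.20 and 0.11 in that order. In cells with fewer than 1000 UMIs it was 1.19 in endothelial-like, -0.25 in microglia-like and -2.27 in pericyte-like cells, on few UMIs. The log2 of the astrocyte-like over the oligodendrocyte-like level was 1.87 (control) and 1.96 (MNPQ) in thinned cells, against 1.11 and 1.47. Hmgcs1 over all kept cells turned from 0.28 to -0.28 in thinned cells and to -0.11 with clusters weighted equally. The thinned value rests on a single draw, and the same cells before thinning gave 0.30. The cause of these turns was not tested. Of the single-gene ratios under an alternative, between libraries or between astrocyte-like and oligodendrocyte-like cells, 542 of 583 stayed within the counting interval of the reported value and 41 left it. The sign was the opposite of the reported one in 43, of which 32 lay within that interval, and the 2 of Hmgcs1 were those where the interval of the reported value had excluded 0. Fdps in astrocyte-like cells was above 0 in all 14 alternatives (0.27 to 1.69), as were Fdft1 (0.44 to 0.73) and Msmo1 (0.33 to 0.71). The genes of the other lists were run under the same alternatives, a choice made after seeing the data. With a minimum of 50 UMIs the background shares were 10.2% lower in astrocyte-like, 5.77% higher and 9.38% lower in endothelial-like, 4.36% and 9.13% in microglia-like, 11.4% lower in neuron-like and 8.16% and 6.47% in oligodendrocyte-like cells. No paired analysis was possible because each group had 1 library. Thinning left 440 control and 409 MNPQ cells, and single genes in the smaller classes had under 30 UMIs a library, so differences short of the intervals given were not detectable at this depth.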

Other observations

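Fatty acid synthesis, which the factor encoded by Srebf1 controls, was represented by 10 genes in astrocyte-like cells. Of these, 0 were at least 1.5-fold higher and 3 lower in the MNPQ library, with a median log2 ratio of -0.06, against a background of 17.0% higher and 16.5% lower, about 2 genes of 10 each way. Over all kept cells 0 of 10 were past 1.5-fold either way, against 9.22% higher and 16.7% lower. Scd2, a desaturase that makes monounsaturated fatty acids, had 598 and 318 UMIs in astrocyte-like cells (1126 and 619.5 CPM), a log2 ratio of -0.86 (-1.06 to -0.66). It lay at -1.11 in cells with at least 1000 UMIs and -0.03 in the shallower ones. The other two were Scd1, with 66 and 39 UMIs (-0.71, interval -1.32 to -0.12), which turned to 0.44 in cells with fewer than 1000 UMIs, and Acaca, with 23 and 13 (-0.77, interval -1.88 to 0.27). In oligodendrocyte-like cells Scd2 had 409 and 747 UMIs, a log2 ratio of 0.07 (-0.11 to 0.25). The highest of the list in astrocyte-like cells was Fads1, another desaturase, with 54 and 68 UMIs (0.38, interval -0.16 to 0.92), and -0.09 in cells with at least 1000 UMIs. Over all kept cells the highest was Me1 (58 and 74 UMIs, 0.38, with a lowest value of -0.27 over the alternatives), the lowest Elovl6 (66 and 51, -0.34) and the most counted Scd2 (1318 and 1213, -0.09). Whether the Scd2 ratios of the 2 classes differ was not tested, and their intervals do not overlap.

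The barcodes removed by the filter, 223 control and 111 MNPQ, held 57 and 51 UMIs of the 7 sterol genes. As levels these were 275.1 and 493.7 CPM, a log2 ratio of 0.84 (0.27 to 1.41). Ependymal-like cells, 28 and 6, held 71 and 17 (306.3 and 354.7 CPM). Smooth muscle-like cells, 13 and 17, held 7 and 31 (118.7 and 298.1 CPM).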
